A study of Homo sapiens with 12 samples.

Results

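The DNA replication genes were a fixed list of 45 genes that encode the machinery of S phase, taken from the count table by matching each gene symbol to its Ensembl identifier. All 45 were found, each with 1 row, among the 58288 genes of the table, and all 45 passed the filter on low counts in both cell types. The RNA came from HL-60/S4, an established human cell line derived from an acute promyelocytic leukemia, which grows as promyelocytes and matures toward granulocytes under all-trans retinoic acid (ATRA). It was compared in 4 groups of 3 libraries each. Undifferentiated cells received 16 ng/mL of TNF-α or the same volume of water as vehicle for 2 h, and cells kept for 4 days in 1 µM ATRA received the same treatments. All groups were at passage 8 and in calcium-supplemented medium during the treatment. Each library was made from its own flask of this line, so the spread between libraries describes flasks of 1 line and not separate donors. Because the 2 cell types were treated in separate experiments, levels in one cannot be told apart from effects of its experiment, and no test between them was made. The effect of TNF-α was tested within each cell type, and the difference between the 2 effects was tested across all 12 libraries.

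DNA replication begins with licensing, in which the origin recognition complex, CDC6 and CDT1 load rings of the MCM2-7 helicase onto DNA, while geminin holds CDT1 back. CDC45 and the GINS complex turn the loaded ring into an active helicase, primase and polymerase α lay down primers, polymerases δ and ε extend them on the PCNA clamp that replication factor C opens and closes, RPA covers the exposed single strands, and FEN1 and LIG1 finish the lagging strand. Most of these genes are transcribed in late G1 and S phase by E2F factors, and their RNA is known to fall as myeloid precursors leave the cell cycle on the way to mature granulocytes.

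E2F factors bind a short core in the promoters of many replication genes, so the promoters of 5 members with a change described further on are shown. Each is a window of 300 bases from RefSeq (GRCh38.p14), written 5′ to 3′ on the strand of its gene, and the capitals mark matches to the E2F core on either strand.
PCNA, chr20:5126573-5126872, minus strand: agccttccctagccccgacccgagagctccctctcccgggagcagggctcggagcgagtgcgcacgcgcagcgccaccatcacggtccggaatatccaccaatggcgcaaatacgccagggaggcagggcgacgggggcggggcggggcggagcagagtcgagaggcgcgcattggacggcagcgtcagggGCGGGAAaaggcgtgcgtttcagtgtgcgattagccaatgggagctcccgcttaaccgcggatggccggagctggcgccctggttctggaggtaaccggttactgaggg
PRIM1, chr12:56752274-56752573, minus strand: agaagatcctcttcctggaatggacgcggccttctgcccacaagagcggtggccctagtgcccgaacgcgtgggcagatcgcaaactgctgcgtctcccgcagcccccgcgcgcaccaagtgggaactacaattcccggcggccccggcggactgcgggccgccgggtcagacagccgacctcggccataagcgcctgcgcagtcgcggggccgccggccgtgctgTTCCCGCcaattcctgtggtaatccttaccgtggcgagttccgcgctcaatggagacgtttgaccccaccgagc
UHRF1, chr19:4909251-4909550, plus strand: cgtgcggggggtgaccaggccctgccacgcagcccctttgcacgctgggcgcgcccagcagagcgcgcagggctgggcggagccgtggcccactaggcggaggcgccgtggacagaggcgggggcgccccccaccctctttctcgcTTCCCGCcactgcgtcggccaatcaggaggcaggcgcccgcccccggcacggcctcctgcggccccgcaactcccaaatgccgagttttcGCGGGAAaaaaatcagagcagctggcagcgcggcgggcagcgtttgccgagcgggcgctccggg
POLE, chr12:132687293-132687592, minus strand: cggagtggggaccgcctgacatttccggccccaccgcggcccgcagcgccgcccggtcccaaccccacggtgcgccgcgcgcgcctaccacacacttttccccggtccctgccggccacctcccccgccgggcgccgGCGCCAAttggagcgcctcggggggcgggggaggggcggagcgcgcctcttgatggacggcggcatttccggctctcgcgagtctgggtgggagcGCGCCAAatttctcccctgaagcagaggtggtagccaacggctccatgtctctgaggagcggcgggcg
CLSPN, chr1:35769929-35770228, minus strand: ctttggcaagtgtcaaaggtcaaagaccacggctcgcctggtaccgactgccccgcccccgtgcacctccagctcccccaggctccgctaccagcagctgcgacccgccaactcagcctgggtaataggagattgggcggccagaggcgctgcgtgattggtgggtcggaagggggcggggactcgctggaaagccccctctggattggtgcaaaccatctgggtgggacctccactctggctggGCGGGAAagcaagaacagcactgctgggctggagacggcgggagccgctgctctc
The core was searched on either strand in 4 forms, written TTCCCGC for the first form, TTCGCGC for the next form, TTGCCGC for another form and TTGGCGC for the last. PCNA, the sliding clamp, had 1 match that began 59 bases before the RefSeq start, PRIM1, the catalytic primase subunit, 1 match that began 24 bases before it, and CLSPN, a checkpoint adaptor, 1 match that began 5 bases before it. UHRF1, which maintains DNA methylation behind the fork, and POLE, the catalytic subunit of polymerase ε, had 2 matches each. The UHRF1 window lies at a RefSeq start 6421 bases from the first base that the count table gives for the gene. RefSeq windows were at hand for 39 of the 45 members, and none was given for POLD3, MCM5, RPA3, RPA2, MCM4 and GINS4. Of the 39 windows, 29 (74.4%) held the core, against 3020 of 18954 genes (15.9%) with a window of the same length. Those 18954 genes were not matched to the members in expression or in the GC content of the window, and the core is rich in G and C. By direction of the granulocyte response described below, 10 of 11 windows of decreased members, 4 of 5 of increased members and 15 of 23 of the others held it. Like that of UHRF1, some of these windows lay away from the gene's first base in the count table. The distance was 97391 bases for GINS3, a decreased member whose window held the core. It was 3115 for RFC5, 1870 for RRM2, 1119 for GINS2 and 1088 for CHEK1. The CCAAT box, CCAAT on either strand, was in 23 of 39 member windows (59.0%) and in 36.2% of all windows. It can share letters with the E2F core, as it does in the window of PRIM1 and at the first match of POLE. TTTGAA, the core of the cell cycle homology region, was in 1 of 39 (2.56%), the window of RRM1, against 13.2% of all.

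The 12 libraries held 22829189 to 31895061 counts each (median 28233190), and the members held between 212 (GINS2) and 20697 (MCM7) counts in a library, far above the 3 counts taken as the limit of detection. Of the 7 promyelocyte markers, MPO and PRTN3 were abundant in promyelocytes, and ELANE was low, at 1.78 ± 0.287 (SD, n = 3) CPM (counts scaled to a common library size) with vehicle. The summed level of the 7 markers was 7944 to 8555 CPM in vehicle-treated and 6574 to 7466 CPM in TNF-α treated promyelocytes, with 0 increased and 5 decreased, or 2 decreased with GC and length trends removed, where 6.65% and 6.28% of all genes were called lower. In granulocytes it was 2417 to 2651 and 2292 to 2479 CPM, with 2 of the 6 tested decreased, where 24.8% of all genes were called lower. The 9 granulocyte differentiation markers, among them CD38, CYBB and NCF1, summed to 293 to 307 CPM in vehicle-treated promyelocytes and 370.3 to 385 CPM with TNF-α, and to 5203 to 5528 and 5870.2 to 6199 CPM in the granulocyte groups. Of these 9, 2 were called higher and 2 lower in promyelocytes, and 4 higher (ITGAX, FPR1, NCF1 and TGM2) and 4 lower (ITGAM, CD38, CSF3R and CEBPE) in granulocytes. The shares of all genes called higher and lower were 8.15% and 6.65% in promyelocytes and 24.4% and 24.8% in granulocytes. Of the 7 monocyte and macrophage markers only CSF1R reached 1 CPM in any group, and the sum was 2.95 to 4.79 CPM in promyelocytes, 49.6 to 51.4 CPM in vehicle-treated granulocytes and 30.5 to 33.9 CPM with TNF-α, while MSR1 was at 0 in every library. Lymphocyte markers summed to 5.12 to 6.85 CPM in promyelocytes and 11.4 to 15.3 CPM in granulocytes, with MS4A1 at 0. Erythroid and megakaryocyte markers summed to 8.95 to 9.71 CPM with vehicle and 4.29 to 6.003 CPM with TNF-α in promyelocytes, and to at most 4.96 CPM in granulocytes, with HBB at 0. What part these shifts in markers with TNF-α have in the members' values was not tested, and in bulk RNA fewer cells of a type and less RNA per cell cannot be told apart.

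Replication genes were expressed in all 4 groups, with every member above 1 CPM, and stood lower in the granulocyte libraries. Their counts summed to 7286, 7299.5 and 7523 CPM in the vehicle-treated promyelocytes and to 2747, 2805 and 2808 CPM in the vehicle-treated granulocytes. The values in the 2 cell types come from separate experiments that were normalised separately and are given side by side. On the scale of CPM per kb of exon, PCNA had the highest level in both, at 262 ± 4.91 (SD, n = 3) in promyelocytes and 103 ± 2.31 in granulocytes, and GINS3, a subunit of the GINS complex, the lowest, at 6.02 ± 0.289 and 2.63 ± 0.28. MCM7 followed PCNA in promyelocytes at 145 ± 5.49 CPM per kb, and TYMS, thymidylate synthase, followed it in granulocytes at 55.1 ± 1.84. The levels of MCM7 and TYMS in promyelocytes (133 ± 5.82 CPM per kb for TYMS) did not overlap beyond their SDs. RPA1 and RPA2, subunits of the single-strand binding complex, had the smallest ratio between the cell types, with RPA2 at 49.8 ± 2.17 and 40.8 ± 1.63 CPM per kb. POLD2, a subunit of polymerase δ, had the largest, at 58.1 ± 3.61 and 10.8 ± 0.124. POLE is counted over 16609 bases of merged exons, the long denominator behind its 12.5 ± 0.394 and 6.48 ± 0.298 CPM per kb.

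**Figure D1:**
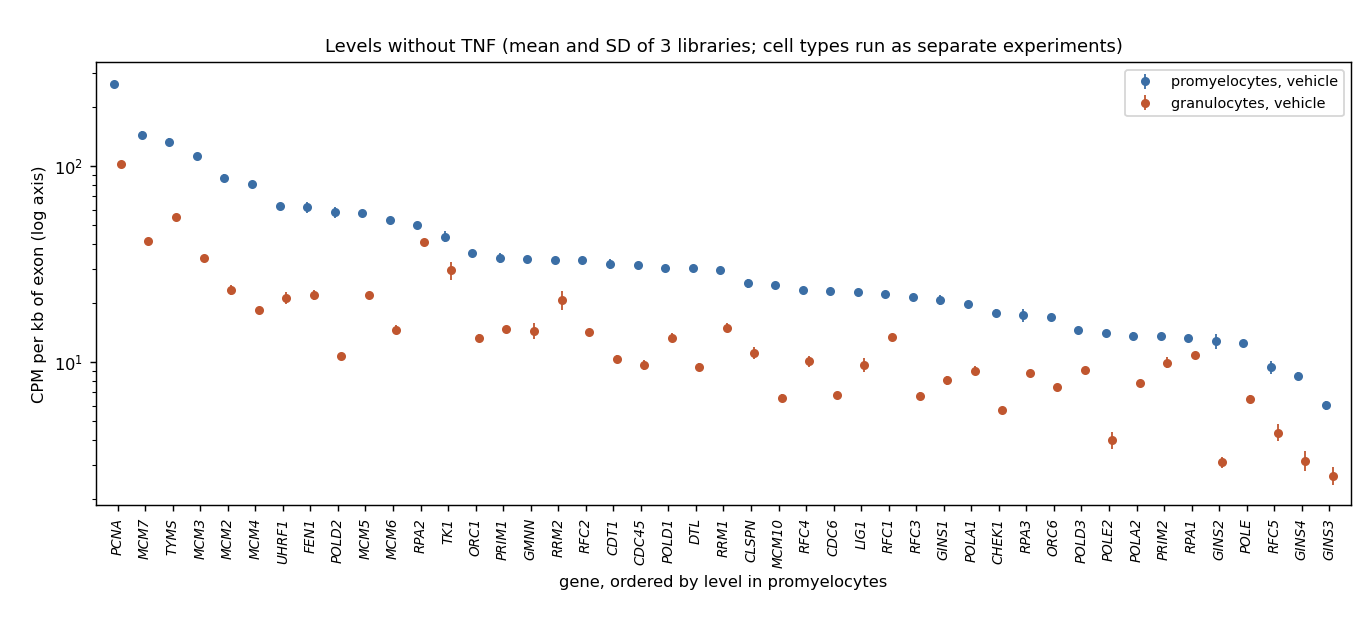
Level of each of the 45 replication genes without TNF-α, in CPM per kb of exon on a log axis, with genes ordered by their level in promyelocytes. Points are means of 3 libraries and bars are SDs, blue for promyelocytes and orange for granulocytes, which were run as separate experiments. PCNA stands highest and GINS3 lowest in both.

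In promyelocytes, 2 h of TNF-α left most replication genes without a change that passed the test. RRM2 and RFC3 rose, CDT1 and UHRF1 fell, and 41 of 45 were not called by edgeR's quasi-likelihood test with Benjamini-Hochberg adjustment over all 16250 genes tested (threshold 0.05). Over all genes, 8.15% were called higher and 6.65% lower. The member log2 fold changes, TNF-α over vehicle, ran from -0.28 to 0.33 with a median of 0.02, against -0.01 over all genes tested. No member moved by more than 0.5 on the log2 scale, a size passed by 13.5% of all genes tested, and the widest 95% intervals reached -0.42 and 0.44. The median size of the change, up or down, was 0.115 for members and 0.151 for all genes. The median SE was 0.059 for members and 0.098 for all genes, so these sizes are not compared at like precision. In 16 members the 3 TNF-α libraries all lay above the 3 vehicle libraries, and in 4 all lay below, where such separation was seen in 16.0% and 15.1% of all genes tested. Summed over the members, the 3 TNF-α libraries held 7278, 7417 and 7441 CPM, the lowest of them just below the range of the vehicle libraries and the others within it.

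In granulocytes more members passed the test, in both directions. MCM7, CDC45, GINS4, POLE, RRM2 and CLSPN rose, and MCM2, MCM3, MCM4, MCM6, GINS3, PRIM1, PRIM2, PCNA, RFC1, RPA1, DTL and UHRF1 fell. These were 6 and 12 of the 45 members, where 24.4% of all 16944 genes tested were called higher and 24.8% lower. The log2 fold changes ran from -0.44 to 0.33 with a median of -0.03, against -0.005 over all genes tested. Again no member moved by more than 0.5, a size passed by 29.2% of all genes, and the widest 95% intervals reached -0.56 and 0.50. The median size of the change was 0.123 for members and 0.281 for all genes. Here too the precision was unlike, with a median SE of 0.059 for members and 0.093 for all genes. The TNF-α libraries separated from the vehicle libraries upward in 8 members and downward in 13 (27.3% and 27.9% of all genes). The member sum was 2732, 2703 and 2784 CPM with TNF-α, of which the highest lay within the range with vehicle. These calls are relative to the TMM scaling, which rests on a trimmed mean of log ratios over genes. Scaled to library totals without TMM, an alternative chosen after seeing the data, the median of all genes tested in granulocytes moved from -0.005 to -0.135, and 1 member (POLE) was called higher and 24 lower.

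**Figure D2:**
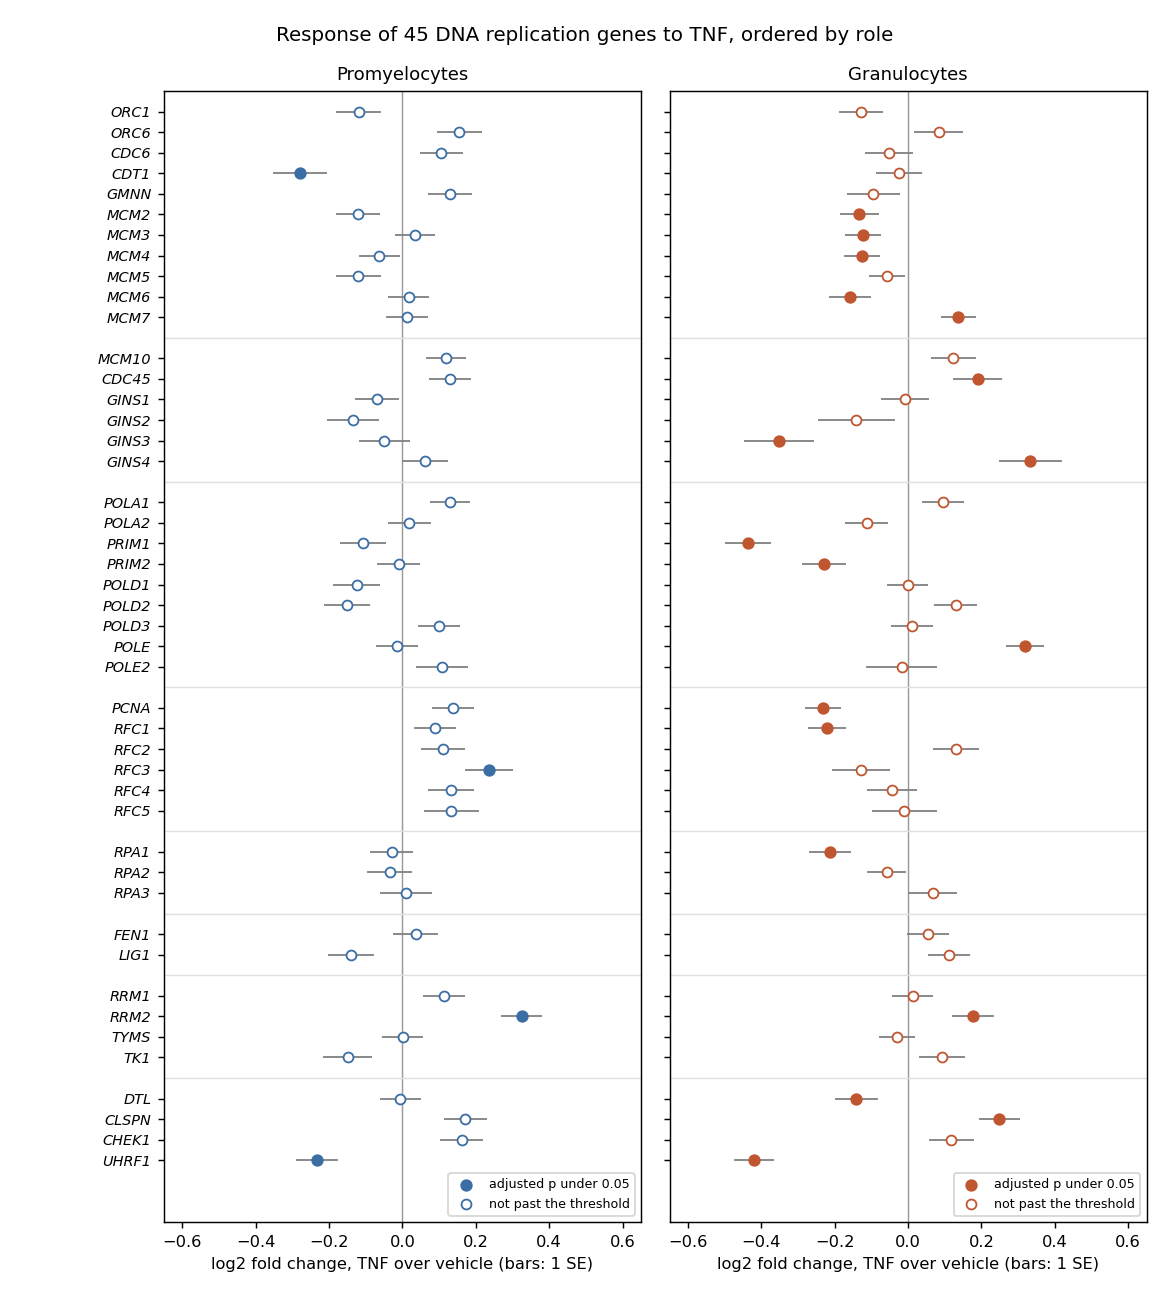
Log2 fold change with TNF-α over vehicle for the 45 replication genes, grouped by role, in promyelocytes (left) and granulocytes (right). Bars are 1 SE and filled points had an adjusted p under 0.05 in edgeR's test. In promyelocytes 4 points are filled and in granulocytes 18, and all lie between -0.44 and 0.33.

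Among the 11 licensing genes, CDT1 was the member that changed in promyelocytes. CDT1 (ENSG00000167513.8, chr16:88803213-88809258) had 113, 104 and 101 CPM with vehicle and 79.2, 83.7 and 98.0 CPM with TNF-α. The 3 treated libraries lay below the vehicle libraries, the highest of them close to the lowest vehicle library. The log2 fold change was -0.28 (SE 0.0732, adjusted p = 0.0122, edgeR). The call was lost without vehicle replicate 1 (adjusted p = 0.068), without TNF-α replicate 1 (0.0526) and without TNF-α replicate 2 (0.0751). In granulocytes CDT1 stood at 34.7 ± 1.6 (SD, n = 3) and 34.1 ± 1.19 CPM, a log2 difference of -0.03 with a 95% interval of -0.149 to 0.0978. The other 10 licensing genes were not called in promyelocytes, with log2 values from -0.12 (MCM2 and MCM5) to 0.16 (ORC6, the smallest subunit of the origin recognition complex). ORC1, its largest subunit, was at -0.12 in promyelocytes and -0.13 in granulocytes, neither past the threshold, and CDC6 and GMNN, which encodes geminin, were also not called in either cell type.

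The MCM2-7 ring did not move as 1 group. In granulocytes MCM2, MCM3, MCM4 and MCM6 fell by 0.13, 0.12, 0.13 and 0.16 on the log2 scale, MCM7 rose by 0.14, and MCM5 was at -0.06 with no call. Over all genes, 24.4% were called higher and 24.8% lower. MCM7 had 180.4, 180.4 and 187 CPM with vehicle and 208, 201 and 194 CPM with TNF-α, so the groups did not overlap. MCM6 had 58.1, 64.1 and 58.9 CPM with vehicle and 52.0, 55.7 and 54.5 CPM with TNF-α, again without overlap. The adjusted p-values of these 5 lay between 0.0175 (MCM7) and 0.0376 (MCM3) in edgeR's test. Each of the 5 calls was lost when some single libraries were left out, among them vehicle replicate 2 for all 5, with adjusted p-values then of 0.0782 (MCM2), 0.119 (MCM3), 0.0733 (MCM4), 0.159 (MCM6) and 0.067 (MCM7). Other single libraries also ended the call: TNF-α replicate 1 for MCM6 (0.0801) and MCM7 (0.0731), vehicle replicate 3 and TNF-α replicate 2 for MCM2 (0.24 and 0.217) and MCM3 (0.0786 and 0.233), TNF-α replicate 3 for MCM2 (0.107), and each remaining library but TNF-α replicate 3 for MCM4 (0.0566 to 0.196). In DESeq2 the calls of MCM2 (adjusted p = 0.091), MCM3 (0.0602), MCM4 (0.0594) and MCM6 (0.0617) were lost, and in the fit of all 12 libraries those of MCM2 (0.124), MCM3 (0.0953) and MCM4 (0.0899). MCM3 (0.0651) and MCM4 (0.0552) were also lost without the filter, MCM3 with size factors (0.0502), MCM4 (0.0512) and MCM6 (0.191) with GC and length trends removed, and MCM7 with library totals (0.01, adjusted p = 0.925). With GC and length trends removed MCM5 was called lower, at -0.09 (adjusted p = 0.0455), and MCM2 was at -0.17 (adjusted p = 0.00184). In promyelocytes the 6 MCM genes lay between -0.12 and 0.03 and none was called.

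Of the 6 genes that activate the helicase, none was called in promyelocytes and 3 were in granulocytes, in opposite directions within the GINS complex. Calls fell on 14.8% of all genes tested in promyelocytes and on 49.2% in granulocytes, a share close to 3 of 6. GINS3 (ENSG00000181938.13, chr16:58295080-58406144) had 12.4, 12.8 and 15.1 CPM with vehicle and 10.29, 10.51 and 10.83 CPM with TNF-α in granulocytes. Every treated library lay below every vehicle library, and the log2 fold change was -0.35 (SE 0.0956, adjusted p = 0.00228). GINS4 (ENSG00000147536.11, chr8:41529206-41545046) had 15.9, 19.5 and 16.2 CPM with vehicle and 20.0, 20.9 and 24.3 CPM with TNF-α. The treated libraries all lay above the vehicle libraries, the nearest ones close together, and the log2 fold change was 0.33 (SE 0.0859, adjusted p = 0.0014). Scaled to library totals it was 0.20 (adjusted p = 0.0552). GINS1 and GINS2, the other subunits, were at -0.01 and -0.14 and were not called. CDC45, which binds GINS and the MCM ring, rose by 0.19 (adjusted p = 0.0175). That call was lost without vehicle replicate 2 (adjusted p = 0.108), without TNF-α replicate 1 (0.06), with library totals (0.491) and in DESeq2 (0.0582). MCM10, which joins the activated helicase, was at 0.12 in both cell types and was not called.

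**Figure D3:**
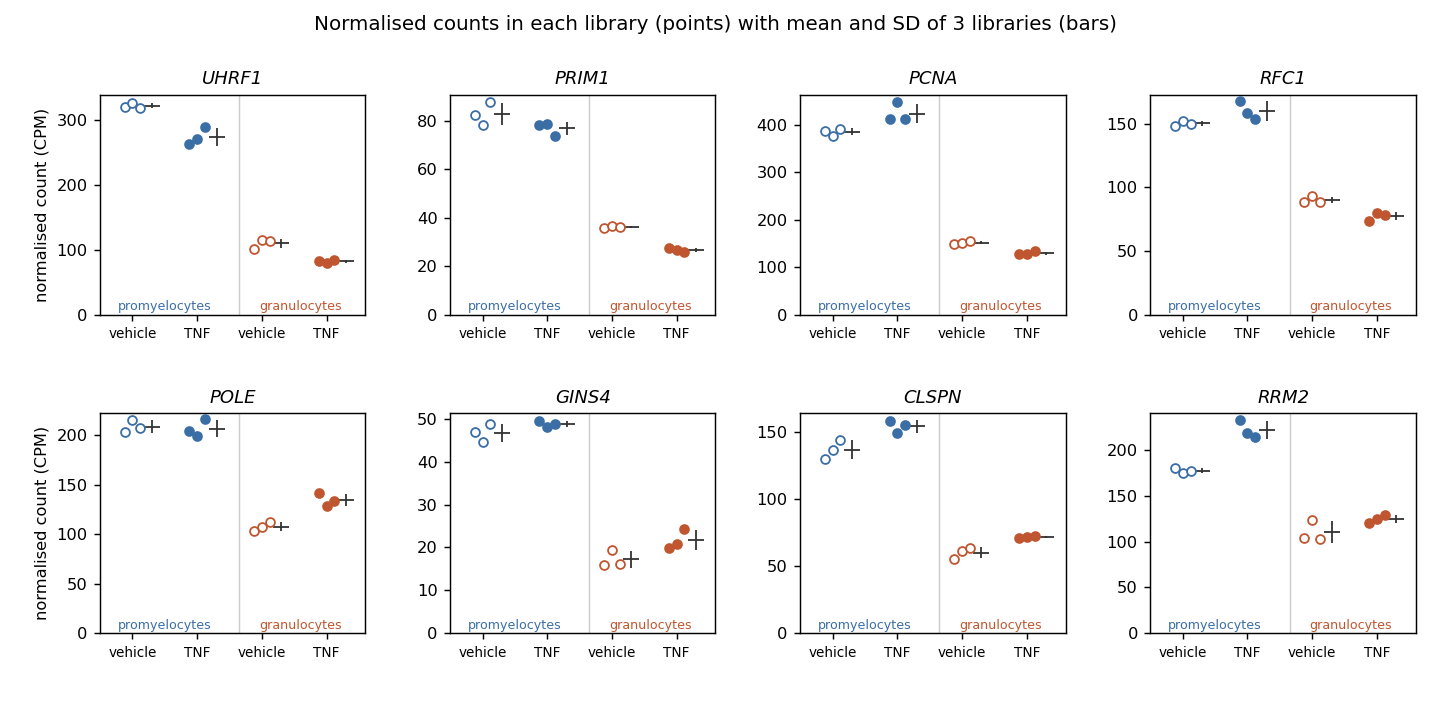
Normalised counts (CPM) of 8 replication genes in each of the 12 libraries, with the mean and SD of the 3 libraries of a group as the bars beside the points. Open points are vehicle and filled points TNF-α, blue for promyelocytes and orange for granulocytes, and each panel has its own axis from 0. In granulocytes the TNF-α libraries of UHRF1, PRIM1, PCNA and RFC1 lie below all vehicle libraries and those of POLE, GINS4 and CLSPN above them, while those of RRM2 overlap.

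Primase RNA fell in granulocytes, while the catalytic subunit of polymerase ε rose. PRIM1 (ENSG00000198056.13, chr12:56731596-56752373), the subunit that makes the RNA primer, had 35.6, 36.5 and 36.4 CPM with vehicle and 27.6, 26.6 and 26.0 CPM with TNF-α in granulocytes. The gap between the groups was wider than the range within either, and the log2 fold change was -0.44 (SE 0.0633, adjusted p = 3.57e-07, edgeR), the largest of the 45 members in size. In promyelocytes it had 82.4, 78.5 and 87.9 CPM with vehicle and 78.4, 78.7 and 73.9 CPM with TNF-α, groups that overlapped, with a log2 value of -0.11 (adjusted p = 0.288). PRIM2 (ENSG00000146143.17, chr6:57314805-57646849), the large primase subunit, had 49.9, 44.3 and 45.2 CPM with vehicle and 38.4, 40.0 and 40.3 CPM with TNF-α in granulocytes. It fell by 0.23 on the log2 scale (SE 0.0603, adjusted p = 0.00168), and by 0.12 with an adjusted p of 0.0758 once trends with GC content and gene length were removed. POLE (ENSG00000177084.16, chr12:132623753-132687365) had 103, 107 and 113 CPM with vehicle and 141, 129 and 133 CPM with TNF-α in granulocytes. It rose by 0.32 (SE 0.0513, adjusted p = 2.2e-06), and in promyelocytes its 203, 215 and 207 CPM with vehicle overlapped the 204, 199 and 216 CPM with TNF-α. Its partner POLE2 was at 0.11 in promyelocytes and -0.02 in granulocytes without a call. POLA1 and POLA2 of polymerase α and POLD1, POLD2 and POLD3 of polymerase δ were not called in either cell type, with values between -0.15 and 0.13.

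Of the 6 genes of the clamp and its loader, RFC3 rose in promyelocytes, and PCNA and RFC1 fell in granulocytes. The median log2 value of the group was 0.13 in promyelocytes and -0.09 in granulocytes, and with GC and length trends removed 0.14 and 0.01, with RFC4 and RFC5 then above 0 in granulocytes (0.04 and 0.06). PCNA (ENSG00000132646.10, chr20:5114953-5126626), the ring that holds polymerases on DNA, had 388, 377 and 391 CPM with vehicle and 412, 447 and 412 CPM with TNF-α in promyelocytes. The groups did not overlap, but the log2 fold change of 0.14 (SE 0.0569) did not pass the threshold (adjusted p = 0.12). In granulocytes PCNA had 148, 152 and 155 CPM with vehicle and 127, 127 and 133 CPM with TNF-α, a fall of 0.23 on the log2 scale (SE 0.0483, adjusted p = 0.000118). RFC1 (ENSG00000035928.15, chr4:39287456-39366375), the large subunit of the clamp loader, also fell in granulocytes. It had 88.5, 92.9 and 88.3 CPM with vehicle and 73.8, 79.5 and 78.3 CPM with TNF-α in granulocytes, a log2 fold change of -0.22 (SE 0.0519, adjusted p = 0.000544), against 0.09 (adjusted p = 0.34) in promyelocytes. RFC3 (ENSG00000133119.12, chr13:33818049-33966558), a small subunit of the loader, had 61.4, 60.4 and 63.4 CPM with vehicle and 78.1, 74.0 and 66.3 CPM with TNF-α in promyelocytes. The treated libraries lay above the vehicle libraries and were spread more widely. The log2 fold change was 0.24 (SE 0.0658, adjusted p = 0.018), and the call was lost without vehicle replicate 1 (0.0577), vehicle replicate 2 (0.0965), TNF-α replicate 1 (0.0803) or TNF-α replicate 2 (0.0664). RFC2, RFC4 and RFC5, the other small subunits, were at 0.11, 0.13 and 0.13 in promyelocytes and at 0.13, -0.04 and -0.01 in granulocytes, with no call.

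RPA1 was the member of the single-strand binding complex that fell in granulocytes. RPA1 (ENSG00000132383.11, chr17:1829702-1900082), the large DNA-binding subunit, had 61.1, 57.7 and 59.5 CPM with vehicle and 47.4, 52.3 and 54.1 CPM with TNF-α. The groups did not overlap and the log2 fold change was -0.21 (SE 0.0574, adjusted p = 0.00229), while in promyelocytes it was -0.03 (adjusted p = 0.799). RPA2 and RPA3 were at -0.06 and 0.07 in granulocytes and at -0.03 and 0.01 in promyelocytes, with no call. FEN1, the flap nuclease, and LIG1, the ligase of the lagging strand, were not called in either cell type, with LIG1 at -0.14 in promyelocytes and 0.11 in granulocytes.

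Of the 4 genes of nucleotide supply, RRM2 rose in both cell types. RRM2 (ENSG00000171848.14, chr2:10120698-10131419), the small subunit of ribonucleotide reductase whose level sets the enzyme's activity through the cell cycle, had 179.8, 175 and 176 CPM with vehicle and 233, 218 and 214 CPM with TNF-α in promyelocytes. The gap between the groups was wider than the range within either, and the log2 fold change was 0.33 (SE 0.0564, adjusted p = 0.000329), the largest rise among the members in promyelocytes. In granulocytes it had 104, 124 and 102 CPM with vehicle and 120.0, 125 and 129 CPM with TNF-α, so vehicle replicate 2 lay within the treated range. The log2 fold change was 0.18 (SE 0.0575, adjusted p = 0.0101), and the call was lost without vehicle replicate 1 (0.0884), without vehicle replicate 3 (0.0885) and with library totals (0.531). Exons of another gene on the same strand cover 20.2% of the RRM2 exons in the table, and read pairs on such bases go to neither gene by the counting tool's default. RRM1, the large subunit, was at 0.11 in promyelocytes and 0.01 in granulocytes, TYMS at 0.00 and -0.03, and TK1, thymidine kinase, at -0.15 and 0.09, with no call.

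UHRF1 fell in both cell types, and the other genes of this group differed in direction. UHRF1 (ENSG00000276043.4, chr19:4903080-4962154), which brings the maintenance methyltransferase to newly copied DNA, had 321, 327 and 319 CPM with vehicle and 263, 270.4 and 290.1 CPM with TNF-α in promyelocytes. In granulocytes it had 101, 115 and 113 CPM with vehicle and 82.6, 79.1 and 84.6 CPM with TNF-α. In neither cell type did the groups overlap. The log2 fold change was -0.23 (SE 0.0569, adjusted p = 0.00772) in promyelocytes and -0.42 (SE 0.054, adjusted p = 3.08e-08) in granulocytes. Without vehicle replicate 2 the promyelocyte call was lost (adjusted p = 0.0562), and with GC and length trends removed the value there was -0.15 (adjusted p = 0.0204). CLSPN (ENSG00000092853.13, chr1:35720218-35769967), the adaptor between the fork and the checkpoint kinase, had 55.5, 61.4 and 63.8 CPM with vehicle and 71.1, 71.5 and 72.4 CPM with TNF-α in granulocytes. It rose by 0.25 (SE 0.0557, adjusted p = 0.000297), or by 0.12 (adjusted p = 0.073) with library totals. In promyelocytes the groups of CLSPN did not overlap either, but its log2 value of 0.17 missed the threshold (adjusted p = 0.0564). CHEK1, the checkpoint kinase itself, was at 0.16 and 0.12 with no call. DTL, the ubiquitin ligase adaptor that removes CDT1 in S phase, was at -0.01 in promyelocytes and fell by 0.14 in granulocytes (adjusted p = 0.0431), a call lost in 5 of the 6 fits that left out 1 library (adjusted p = 0.0525, 0.231, 0.0888, 0.111 and 0.0833 without vehicle replicates 1 and 2 and TNF-α replicates 1, 2 and 3). The DTL call was also lost with size factors (0.0528), without the filter (0.0732), in DESeq2 (0.128), in the fit of all 12 libraries (0.0691) and with GC and length trends removed (0.309).

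The responses of 10 members differed between the cell types in the test of the interaction, with 6 more positive and 4 more negative in granulocytes. Each cell type was its own experiment, so such a difference cannot be told apart from one between the experiments. Of all 18124 genes tested, 14.1% and 9.88% were called in those directions. CDT1, GINS4, POLD2, POLE, LIG1 and TK1 had the more positive response in granulocytes and PRIM1, PCNA, RFC1 and RFC3 the more negative one. The largest difference was that of POLE, at 0.37 on the log2 scale (SE 0.0769, adjusted p = 0.000646), followed in adjusted p by PCNA at -0.33 (SE 0.0719, adjusted p = 0.00106), RFC1 at -0.27 (SE 0.0735, adjusted p = 0.00712), POLD2 at 0.32 (SE 0.0864, adjusted p = 0.0073) and PRIM1 at -0.29 (SE 0.0825, adjusted p = 0.0104). POLD2 (ENSG00000106628.10, chr7:44114681-44124358), which was called in neither cell type alone, had 228, 214 and 202 CPM with vehicle and 182, 194 and 204 CPM with TNF-α in promyelocytes, where the groups overlapped. In granulocytes it had 39.9, 39.2 and 40.1 CPM with vehicle and 44.0, 44.8 and 41.5 CPM with TNF-α, where they did not. RRM2 and UHRF1, which moved the same way in each cell type, had differences of -0.11 (95% interval -0.279 to 0.0602) and -0.15 (-0.304 to 0.00622), which did not pass the threshold. With GC and length trends removed, the difference of UHRF1 was -0.29 and passed it (adjusted p = 0.00125). As counted, the median difference over the members was -0.01, against 0.03 over all genes tested.

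The balance of these differences depended on how the 12 libraries were scaled. With DESeq2's size factors in place of TMM, 2 members were more positive and 6 more negative in granulocytes, and with TMM factors set within each cell type 3 and 4. Over all genes the split went from 2561 more positive and 1790 more negative to 2128 and 2266 with the size factors. The differences of PCNA, RFC1 and POLE passed the threshold in each of the 8 other settings tried at the same threshold and in each of the 12 fits that left out 1 library. That of TK1 passed in none of those 8 settings.

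**Figure D4:**
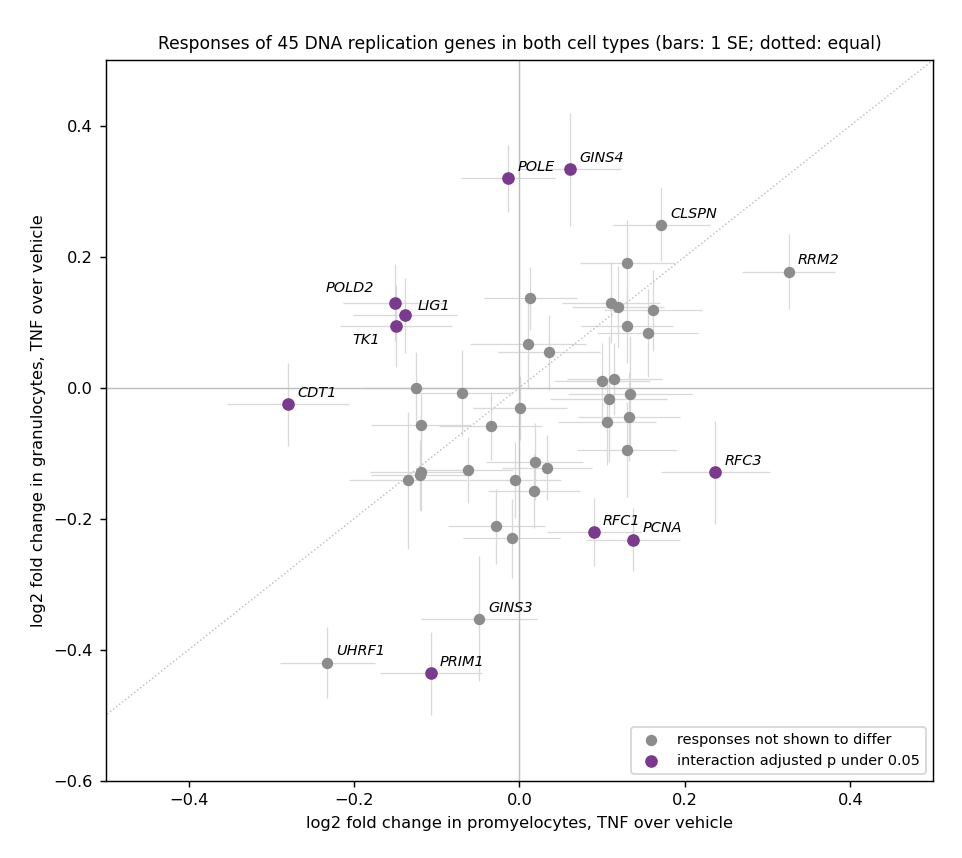
Log2 fold change with TNF-α in promyelocytes (horizontal axis) against granulocytes (vertical axis) for the 45 replication genes, with bars of 1 SE and a dotted line where both are equal. Purple points are the 10 members whose responses differed between the cell types (interaction, adjusted p under 0.05). POLE and GINS4 lie above the line, and PRIM1, PCNA, RFC1 and RFC3 below it.

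In promyelocytes, members with a higher GC content tended to have lower log2 fold changes. The exons of the members ran from 38.0% (PRIM2) to 64.9% GC with a median of 47.3%, close to the 47.7% of all genes tested. Across the 45 members, Pearson's r between GC content and the log2 fold change was -0.628 in promyelocytes (Spearman's rho -0.556), 0.195 in granulocytes (0.240) and 0.643 for the difference of responses (0.605). The points share the same libraries and are not independent, so these are descriptions. Over all genes tested r was -0.131, 0.103 and 0.193. CDT1, at 64.9% GC, had the lowest promyelocyte value, and RFC3, at 39.3%, the second highest. Once the trends of every library with exon GC content and length had been taken out, r across the members was -0.210, -0.130 and 0.008.

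With those trends removed, 6 members were called higher in promyelocytes (CDC45, PCNA, RFC2, RFC3, RRM2 and CLSPN) and 3 lower (CDT1, PRIM1 and UHRF1), where 9.35% and 6.28% of all genes were. In granulocytes 12 were called higher and 10 lower, against 26.9% and 23.5% of all genes. ORC6, MCM10, POLA1, RFC2, RPA3 and CHEK1 joined the members called higher, MCM5 and POLD1 joined those called lower, and MCM4, MCM6, PRIM2 and DTL were no longer called. For the difference of responses POLE alone was more positive (0.23, adjusted p = 0.00387), and MCM3, POLA2, PCNA, RFC1 and UHRF1 were more negative, against 13.5% and 10.6% of all genes. PCNA was then at 0.15 in promyelocytes (adjusted p = 0.034) and fell by 0.17 in granulocytes (adjusted p = 0.000721), so that it was called in opposite directions. CDT1 was at -0.15 in promyelocytes (adjusted p = 0.0463), and its difference of responses was 0.03 (adjusted p = 0.852).

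**Figure D5:**
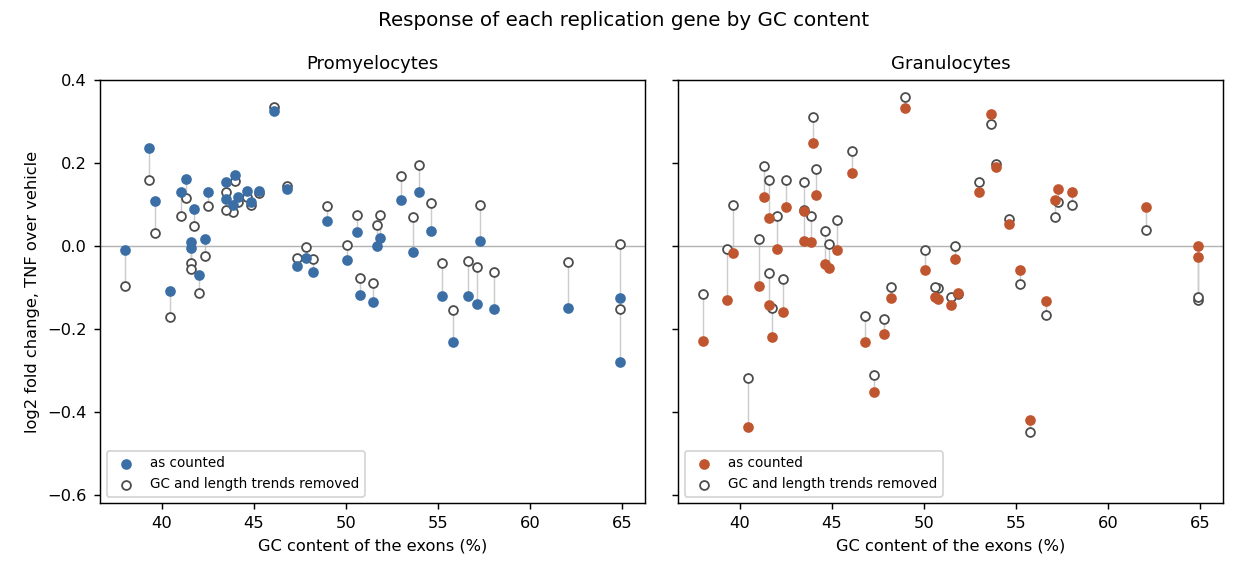
Log2 fold change with TNF-α of each replication gene against the GC content of its exons, in promyelocytes (left) and granulocytes (right). Filled points are values as counted, open points the same genes after trends with GC content and gene length were removed, and a line joins each pair. In promyelocytes the filled points fall from left to right (r = -0.628) and the open points less so (r = -0.210).

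Other genes of replication, none of them in the list of 45, were counted in 4 lists. Over all genes 8.15% were called higher and 6.65% lower in promyelocytes, 24.4% and 24.8% in granulocytes, and 14.1% and 9.88% for the difference of responses. Of 18 other origin and fork factors, 4 rose and 0 fell in promyelocytes, 5 rose and 5 fell in granulocytes, and 1 differed upward and 4 downward between the cell types. With GC and length trends removed these counts were 3 and 0, 6 and 2, and 2 and 2. The shares of all genes were then 9.35% and 6.28%, 26.9% and 23.5%, and 13.5% and 10.6%. DBF4, the activator of the kinase that fires origins, rose in promyelocytes from 78.0 ± 3.39 to 92.2 ± 3.43 CPM (SD, n = 3), by 0.24 on the log2 scale (adjusted p = 0.00867). DBF4 also rose in granulocytes, from 43.8 ± 0.536 to 56.9 ± 1.05 CPM, by 0.38 (adjusted p = 3.83e-07). Its difference of responses was 0.17 (adjusted p = 0.0976), or 0.32 with trends removed (adjusted p = 0.000333). ORC4, a subunit of the origin recognition complex, fell in granulocytes from 47.6 ± 2.27 to 31.7 ± 0.417 CPM, or -0.58 on the log2 scale (adjusted p = 2.11e-10), and was at -0.01 in promyelocytes. Its difference of responses was -0.53 (adjusted p = 4.65e-05). Among 12 other polymerase, clamp loader and maturation genes, 2 rose and 0 fell in promyelocytes, 3 rose and 3 fell in granulocytes, and 3 differed upward and 2 downward (1 and 0, 3 and 3, and 1 and 1 with trends removed). ATAD5, which unloads PCNA, led in promyelocytes at 0.20 (adjusted p = 0.045), but was at 0.11 with trends removed and was then not called (adjusted p = 0.113). In granulocytes POLD4, the smallest subunit of polymerase δ, fell from 15.3 ± 2.49 to 10.99 ± 2.65 CPM (adjusted p = 0.00117), although its groups overlapped. POLE4, a small subunit of polymerase ε, had the largest difference of responses in that list, at 0.36 (adjusted p = 0.0156).

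The largest changes among all these genes were in the other genes of nucleotide supply. Of 9 such genes, 0 rose and 1 fell in promyelocytes, 0 rose and 4 fell in granulocytes, and 3 differed downward (0 and 2, 2 and 5, and 4 downward with trends removed). The shares of all genes called upward and downward were, in that order, 8.15% and 6.65%, 24.4% and 24.8%, and 14.1% and 9.88%. TK2, the thymidine kinase of mitochondria, fell from 8.43 ± 0.21 to 5.07 ± 0.378 CPM in promyelocytes (log2 fold change -0.73, adjusted p = 0.000207) and from 31.3 ± 1.71 to 15.5 ± 1.95 CPM in granulocytes (-1.01, adjusted p = 1.72e-13). RRM2B, the ribonucleotide reductase subunit used outside S phase, had the largest difference of responses at -0.77 (adjusted p = 6.26e-07). It fell in granulocytes from 56.5 ± 3.24 to 29.5 ± 2.89 CPM and stood at 51.4 ± 2.4 and 47.0 ± 1.21 CPM in promyelocytes, where it was not called except with trends removed (-0.21, adjusted p = 0.00636). Of 9 genes of chromatin assembly and methylation behind the fork, none was called in promyelocytes, 4 rose and 1 fell in granulocytes, and 1 differed in each direction. With trends removed the counts within each cell type were the same, and 2 differed upward and 1 downward. ASF1A, a histone chaperone, rose in granulocytes from 107 ± 1.61 to 131 ± 3.14 CPM (0.28, adjusted p = 6.21e-06), with a difference of responses of 0.22 (adjusted p = 0.0316). With trends removed the 2 values were 0.44 and 0.45.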

How the data were processed

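RNA of 12 libraries, 3 in each of 4 groups, was depleted of ribosomal RNA and sequenced in pairs. The deposited values are raw counts per gene that the authors made, per the file header and their notes, by aligning to hg38 with STAR 2.5.3a and counting with featureCounts 1.5.2 on GENCODE 27 (primary alignments, both ends mapped, chimeric pairs left out, strand option 2).

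Counts were tested per cell type with edgeR 4.0.16 (R 4.3.3) by the quasi-likelihood test, with TMM scaling, a filter of at least 10 counts (15 in total) and Benjamini-Hochberg adjustment over all genes tested at a threshold of 0.05. The difference of responses was the interaction in 1 fit of all 12 libraries, so it need not equal the difference of the separate fits. CPM values were scaled within each cell type. SE values were taken from the fold change and its F statistic, and 95% intervals from the SE. Scripts were first tested on simulated data. Each library came from its own flask, so p-values measure the spread between flasks of 1 line. Depth and the limit of 3 counts (0.0941 to 0.131 CPM) cover counting error only. Pseudogene copies of 10 members held at most 0.0605% of the member's counts.

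The members and lists were chosen with earlier results of these data known. All members were counted by role. Library values and full statistics were given per cell type for the 10 called members with the largest change and for the 5 with the smallest interaction p, and of each other replication list the called gene with the largest change was named. The library values of MCM6 and MCM7, the level of ELANE and the granulocyte values of DBF4 were added after their values were seen. Alternatives were DESeq2 1.42.0 and its size factors, no filter, a replicate block, all libraries in 1 fit, thinned counts, a threshold of 0.01, removal of GC and length trends (lowess span 0.3), each library left out and, after seeing the data, library totals without TMM and TMM within each cell type.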

Additional observations from a re-analysis of the deposited data

Results flagged for a closer look

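The test of the interaction found a response to TNF-α that differed between granulocytes and promyelocytes for 10 of the 45 replication genes (edgeR, adjusted over all 18124 genes tested). Of these, 6 were more positive and 4 more negative in granulocytes, where 14.1% and 9.88% of all genes tested were called in those directions. Cell type and experiment coincide here, and their parts in these differences cannot be told apart. Given as granulocytes minus promyelocytes on the log2 scale, POLE had 0.37, POLD2 0.32, GINS4 0.31, CDT1 0.29, LIG1 0.29 and TK1 0.28. PCNA had -0.33, RFC3 -0.33, PRIM1 -0.29 and RFC1 -0.27. The differences of POLE, PCNA and RFC1 kept their side of the threshold in all 8 other settings and all 12 fits without 1 library. That of TK1 was lost in all 8 settings (adjusted p from 0.0627 to 0.503) and those of CDT1 and GINS4 in 7 of 8. LIG1 was lost in 6 of the 8, POLD2 in 2 (library totals, adjusted p = 0.126, and GC content and length, 0.053), and PRIM1 and RFC3 in 1, the removal of GC and length trends (0.16 and 0.163). Among fits without 1 library, CDT1 was lost in 8 of 12, GINS4 in 7, TK1 in 5, LIG1 in 3 (without promyelocyte TNF-α replicate 2, 0.0537, granulocyte vehicle replicate 1, 0.0999, and granulocyte TNF-α replicate 1, 0.0543) and RFC3 in 1 (without granulocyte TNF-α replicate 2, 0.0712).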

How the results depend on the processing

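None of the 32 member calls changed direction in the settings tried or without any 1 library. Over calls and settings, 210 values still passed the threshold and 78 did not, and over calls and libraries left out 195 did and 57 did not. In promyelocytes the 2 increased members became 4 in DESeq2, 1 with the replicate block, 6 with GC and length trends removed and 1 at a threshold of 0.01, and the 2 decreased became 1 at 0.01. Over all genes in promyelocytes, 1275 of 14110 were higher and 928 lower in DESeq2. Of 16250 genes, 1519 and 1020 were called with trends removed and 864 and 574 at 0.01, against 1324 and 1081. The member median was 0.00339 with library totals, -0.00599 in the fit of all 12 libraries and 0.0508 with GC and length trends removed. In granulocytes the 12 decreased members became 7 in DESeq2, 24 with library totals and 7 at 0.01, and the 6 increased became 1 with library totals, 12 with trends removed and 3 at 0.01. Over all genes in granulocytes, 3647 of 21390 were higher and 3403 lower in DESeq2. Of 16944 genes, 4564 and 3974 were called with trends removed and 3337 and 3303 at 0.01, against 4135 and 4209. The granulocyte median of the members was -0.156 with library totals and 0.0181 with trends removed. Members with a more positive response in granulocytes fell from 6 to 2 with size factors, without the filter, in DESeq2, with the replicate block and at 0.01, to 1 with library totals and with trends removed, and to 3 with TMM within each cell type. Those with a more negative response went from 4 to 8 without the filter and in DESeq2, 17 with library totals and 2 at 0.01. The median difference over the members was -0.0890 without the filter, -0.0645 in DESeq2 and -0.157 with library totals. Over all genes, 1991 differences were more positive and 2518 more negative without the filter, and 1943 and 2269 in DESeq2, against 2561 and 1790. Genes tested numbered 32683 without the filter and 16888 in DESeq2, against 18124. All-gene differences numbered 2128 and 2266 with size factors, 2283 and 2122 with TMM within each cell type, and 2444 and 1927 with trends removed. At 0.01 they numbered 1732 and 1111. Over all genes, library totals gave 2810 higher and 6236 lower in granulocytes, against 4135 and 4209, and 1570 and 3530 for the difference, against 2561 and 1790. The causes were not tested.

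The fits without 1 library gave 1 to 3 increased and 1 to 4 decreased members in promyelocytes (median 0.00590 to 0.0429), 4 to 7 and 7 to 10 in granulocytes (median -0.0377 to -0.00302), and 3 to 6 more positive and 3 to 4 more negative differences (median -0.0554 to -0.000151). In promyelocytes 1 was increased without vehicle replicate 1, vehicle replicate 2 or TNF-α replicate 2, and 1 was decreased without any of those or TNF-α replicate 1, and 4 without TNF-α replicate 3. In granulocytes 7 were decreased without vehicle replicate 2. More positive differences numbered 3 without promyelocyte vehicle replicate 1 or TNF-α replicate 2, or granulocyte vehicle replicate 1, TNF-α replicate 1 or TNF-α replicate 3. Over all genes, the fits without 1 library gave 945 to 1315 higher and 653 to 1160 lower in promyelocytes. They gave 3734 to 4044 and 3639 to 4001 in granulocytes, and 2153 to 2740 and 1451 to 1833 for the difference.

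Same-numbered libraries did not deviate together (correlations -0.146 to -0.0435 in promyelocytes, -0.0674 to -0.0129 in granulocytes), so the replicate block rests on shared numbers and not on pairs. With it all-gene calls in promyelocytes were 1012 higher and 821 lower, against 1324 and 1081, and the difference had 2034 and 1315. The block also ended the calls of RFC3 in promyelocytes and of MCM2, MCM3, MCM4, MCM7 and DTL in granulocytes. Among the differences of responses it ended those of CDT1, GINS4, LIG1 and TK1.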
